A study of Litchi chinensis with 18 samples.

Results

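LcPI (LcMADS50, LITCHI011302.m1.gene) and LcAP3-1 (LcMADS75, LITCHI006530.m1.gene) are litchi genes of the B class of floral organ identity genes. They were chosen by identifier and are 2 of the 37401 gene models in the table of the series. The samples were carpels and stamens detached at full bloom from 'Feizixiao' litchi trees, with no treatment named for them, and RNA-seq was done on 18 libraries, 3 for each of 6 organs. F flowers work as females and carry rudimentary stamens. M flowers work as males, and their rudimentary pistil is not obvious. In m flowers, which also work as males, the rudimentary pistil is obvious. The functional organs were thus F-carpel, M-stamen and m-stamen, and the rudimentary organs were F-stamen, M-carpel and m-carpel. Each organ was sampled whole, so an organ with fewer cells of a type cannot be told apart from an organ with less RNA per cell. By the study's methods, plant material was taken in triplicate from all sides of the tree, but nothing ties the single libraries to trees or sides, so the p-values measure the spread between libraries, which may be technical.

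In Arabidopsis, the MADS-domain proteins PISTILLATA (PI) and APETALA3 (AP3) bind DNA as a heterodimer, and each partner needs the other to enter the nucleus and stay active. With C- and E-class partners the heterodimer specifies stamens, and with A- and E-class partners it specifies petals. Litchi flowers have no petals, so of the organs that need B function in this model only the stamen is present. Carpels form in the model where C function acts without B function.

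The MADS box, the stretch of the coding sequence that encodes the DNA-binding domain, is shown because it is the most similar part of the family and the place where reads of the genes could be mixed. Bases 1 to 180 of each coding sequence are given below. Capitals in LcPI and LcAP3-1 mark the bases that differ between these genes, and capitals in LcAP3-2 (LcMADS45, LITCHI010203.m1), the other litchi gene of the AP3 lineage, mark the bases that differ from LcAP3-1.
LcPI: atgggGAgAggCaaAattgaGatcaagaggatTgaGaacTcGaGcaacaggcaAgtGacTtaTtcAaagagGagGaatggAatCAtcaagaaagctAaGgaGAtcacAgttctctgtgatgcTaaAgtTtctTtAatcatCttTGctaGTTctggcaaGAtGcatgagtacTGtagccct
LcAP3-1: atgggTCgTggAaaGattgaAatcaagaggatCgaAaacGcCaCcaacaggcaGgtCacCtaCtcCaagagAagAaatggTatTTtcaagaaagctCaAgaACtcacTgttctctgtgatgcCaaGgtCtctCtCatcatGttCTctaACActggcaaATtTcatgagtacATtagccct
LcAP3-2: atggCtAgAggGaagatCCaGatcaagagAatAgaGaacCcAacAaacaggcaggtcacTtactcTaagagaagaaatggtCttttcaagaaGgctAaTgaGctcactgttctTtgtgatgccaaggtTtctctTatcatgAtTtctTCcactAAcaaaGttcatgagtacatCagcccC
LcPI lies on chromosome 8 from 16602061 to 16605484, LcAP3-1 on chromosome 11 from 2105473 to 2109021 and LcAP3-2 on chromosome 8 from 3014197 to 3016669, on a genome build that none of the sources used here names. LcPI and LcAP3-1 had the same base at 138 of the 180 positions (76.7%), and LcAP3-1 and LcAP3-2 at 148 (82.2%). Of the 42 bases that differed between LcPI and LcAP3-1, 29 were at the third position of a codon, and 24 of the 35 codons that differed encode the same amino acid. The longest run of identical bases between LcPI and LcAP3-1 was 14. Over the 399 bases listed for each gene, neither gene shared a stretch of 50 identical bases with the other or with any of the other listed MADS-box genes (0 of 93 for each). The counts and FPKM imply lengths near 1427 bases for LcPI and 1679 for LcAP3-1, so most of each transcript was not compared. Not all MADS-box genes of the study were among those compared.

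Each locus has 1 gene model in the table (0 other models), although 2344 other loci have more than 1, so neither LcPI nor LcAP3-1 has a second model under its own locus identifier. A B-class protein was the Swiss-Prot annotation of 4 models. They are LcPI, LcAP3-1, LcAP3-2 and LITCHI006580.m1, which had 0 counts in all 18 libraries. Summed over the libraries, LcPI had 192229 counts, LcAP3-1 136147 and LcAP3-2 9181. The total count per library was between 25689398 and 32302522.

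Both genes were highest in stamens and lower in every carpel, but the depth of the carpel minimum differed. Levels are given in FPKM, a fragment count divided by transcript length and by the number of mapped fragments, so they can be compared between genes. LcPI was at 406.5, 412.7 and 408.5 FPKM in the F-stamen libraries, at 636.4, 618.6 and 674.8 in M-stamen and at 364.5, 367.7 and 388.7 in m-stamen. It was at 78.8, 76.6 and 74.8 FPKM in M-carpel, at 3.56, 4.54 and 3.91 in m-carpel and at 3.31, 2.86 and 1.65 in F-carpel. The M-carpel libraries thus stood apart from the other carpels, and the functional carpel held the lowest values. The F-carpel values rest on 150, 122 and 72 counts, and their SD was 33.0% of the mean.

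LcAP3-1 was at 218.9, 221.4 and 220.6 FPKM in F-stamen, at 298.4, 312.0 and 307.9 in M-stamen and at 207.0, 197.4 and 210.0 in m-stamen. It was at 74.5, 81.0 and 82.4 FPKM in F-carpel, at 63.3, 62.6 and 58.4 in M-carpel and at 37.9, 34.4 and 35.4 in m-carpel. Unlike LcPI, LcAP3-1 had no carpel with values near 0, and its highest carpel was the functional carpel.

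The order of organs by level was M-stamen, F-stamen, m-stamen, M-carpel, m-carpel and F-carpel for LcPI. For LcAP3-1 it was M-stamen, F-stamen, m-stamen, F-carpel, M-carpel and m-carpel. The libraries of neighbouring organs in these orders did not overlap in FPKM. On the TMM scale of the tests, however, m-stamen was above F-stamen for both genes, by 0.22 and 0.25 on the log2 scale. The smallest step was from F-stamen to m-stamen, with a ratio of means of 1.10 for LcPI and 1.08 for LcAP3-1. The largest was from M-carpel to m-carpel for LcPI (19.2) and from m-stamen to F-carpel for LcAP3-1 (2.58). From the highest to the lowest organ, the means spanned 247-fold in LcPI and 8.52-fold in LcAP3-1. When all gene models were ranked by FPKM in each library, LcPI was between rank 33 and 35 in M-stamen and between 14800 and 17854 in F-carpel. LcAP3-1 was between rank 111 and 124 in M-stamen and between 800 and 931 in F-carpel, among the top 1255 models in every organ but m-carpel, where its rank was between 2260 and 2552.

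**Figure D1:**
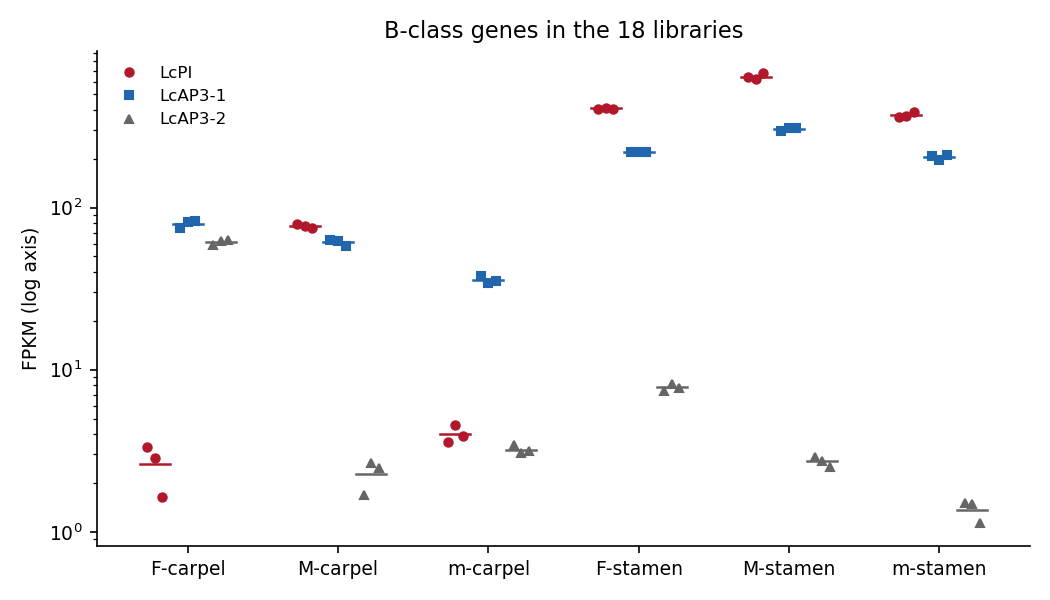
FPKM (log axis) of LcPI, LcAP3-1 and LcAP3-2 in each of the 18 libraries by organ; points are libraries and lines are means of 3. LcPI and LcAP3-1 lie at 197.4 FPKM or more in stamens and apart in F-carpel and m-carpel, where LcPI is below 5 FPKM, while LcAP3-2 is highest in F-carpel at 61.4 FPKM.

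To compare stamens with carpels of the same flower, the counts were tested with edgeR. A call needed an FDR below 0.01 and a log2 fold change of 1 or more in size. Both genes were called higher in stamens in all 3 flower types. Among all 27247 models tested, 18.9% were called higher in F-stamen than in F-carpel, 13.5% in M-stamen than in M-carpel and 21.0% in m-stamen than in m-carpel. For LcAP3-1 the log2 fold change was 1.60 (SE 0.05, FDR = 4.48e-13) in F flowers, 2.37 (SE 0.05, FDR = 2.15e-14) in M flowers and 2.76 (SE 0.05, FDR = 1.30e-15) in m flowers. The corresponding log2 fold changes of LcPI were 7.41, 3.12 and 6.79. In F flowers 1027 models had a larger rise than LcPI and 5237 had a larger rise than LcAP3-1, against 2292 and 3077 in M flowers and 1164 and 4277 in m flowers. The genes therefore stood close together in M flowers and far apart in F flowers. In the other 6 pairs of a stamen with a carpel, both genes were also called higher in the stamen. The share of all models called so was 15.1% and 20.0% for F-stamen against M-carpel and m-carpel, 18.7% and 18.6% for M-stamen against F-carpel and m-carpel, and 22.2% and 18% for m-stamen against F-carpel and M-carpel.

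The difference between flower types was tested itself, as an interaction. For LcAP3-1 the stamen to carpel difference was smaller in F than in m flowers by 1.16 on the log2 scale (SE 0.07, FDR = 1.15e-09), which was called, as were 30.0% of all models tested for this interaction. The LcAP3-1 difference between F and M flowers was -0.77 (SE 0.07, FDR = 1.80e-07) and that between M and m flowers was -0.39 (SE 0.07, FDR = 0.000357), both under the minimum fold change. For LcPI the difference between F and m flowers was 0.62 (SE 0.22, FDR = 0.0297) and was not called. Without F-carpel replicate 3, the library with the lowest LcPI, it was 0.21. For LcPI the stamen to carpel difference in M flowers was smaller than in m flowers, with an interaction of -3.67 (SE 0.22, FDR = 4.16e-09), and 14.7% of all models were called for it. The signs were thus opposite in the pair of genes where F and M flowers were compared, with LcPI at 4.29 and LcAP3-1 at -0.77, where 25.3% of all models were called. They were also opposite between F and m flowers, at 0.62 for LcPI, not called, and -1.16 for LcAP3-1.

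**Figure D2:**
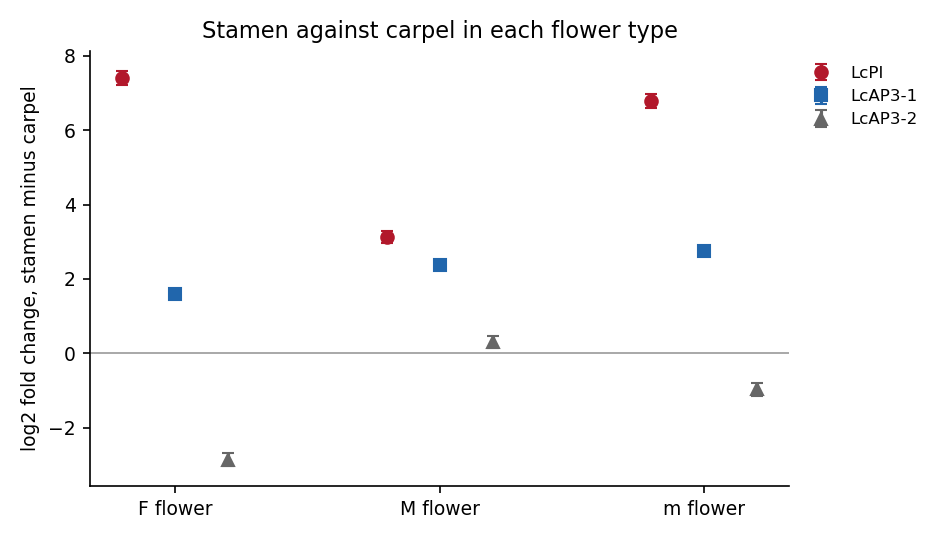
Log2 fold change of stamen minus carpel (edgeR, TMM-scaled counts) in each flower type; points are estimates from 3 libraries an organ and bars are SE. LcPI is at 7.41, 3.12 and 6.79 and LcAP3-1 at 1.60, 2.37 and 2.76 in F, M and m flowers, while LcAP3-2 is at -2.86, 0.30 and -0.97.

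The level of LcPI relative to LcAP3-1 within a library does not depend on how the library is scaled. In stamens LcPI was above LcAP3-1 in all 9 libraries, with an FPKM ratio of 2.10 ± 0.108 in M-stamen, 1.83 ± 0.0557 in m-stamen and 1.86 ± 0.00627 in F-stamen (SD, n = 3). In M-carpel the ratio was 1.25 ± 0.0291 (SD, n = 3), still above 1 in each library. It was 0.112 ± 0.0191 in m-carpel and 0.0333 ± 0.0124 in F-carpel (SD, n = 3), so LcAP3-1 was 7.58 to 10.7 times as high as LcPI in the m-carpel libraries and 22.5 to 50.04 times as high in the F-carpel libraries. Over the libraries of the stamens and M-carpel the ratio thus stayed between 1.22 and 2.19, and LcAP3-1 was in large excess in F-carpel and m-carpel.

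The mean log2 ratio (each FPKM plus 0.1) was 1.07, 0.89 and 0.87 in M-, F- and m-stamen, 0.32 in M-carpel, -3.14 in m-carpel and -4.93 in F-carpel. Stamens exceeded carpels by 3.53 on this scale (exact permutation test within flower types, two-sided, p = 0.00025, the smallest that 8000 arrangements allow, adjusted p = 0.00075 over 3 tests). The difference was 5.82 in F flowers, 0.75 in M flowers and 4.01 in m flowers. Functional and rudimentary stamens differed by 0.08 (exact permutation test over 84 arrangements, two-sided, p = 0.345, adjusted p = 0.345). M-stamen was above the others, with 0.99 as its lowest library against 0.90 as the highest of the F-stamen and m-stamen libraries. The rudimentary carpels as 1 group exceeded F-carpel by 3.52 (exact permutation test over 84 arrangements, two-sided, p = 0.0238, adjusted p = 0.0357). At a threshold of 0.05 this call was lost when any 1 of the 9 carpel libraries was left out, with differences of 3.17 to 3.91 and adjusted p-values of 0.0536 to 0.214. Without an F-carpel library only 28 arrangements remain and no adjusted p can be under 0.0536 at this rank, so that loss is fixed by the design, while without another carpel library 56 remain and 0.0268 could be reached. The 2 rudimentary carpels were far from each other, so 3.52 describes neither alone. The test pooled them and does not compare F-carpel with either.

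**Figure D3:**
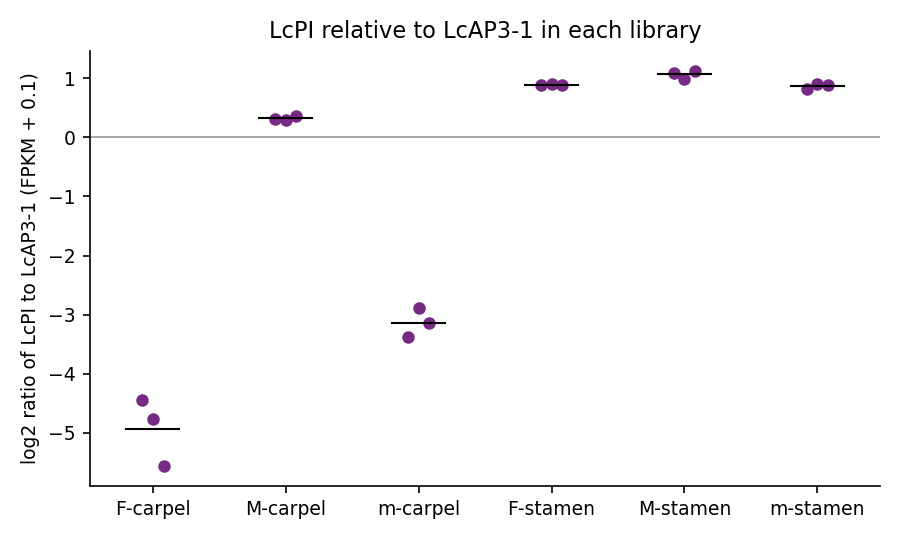
Log2 ratio of LcPI to LcAP3-1 (each FPKM plus 0.1) in each library by organ; points are libraries and lines are means of 3. The stamens lie near 1 and M-carpel at 0.32, while m-carpel and F-carpel lie at -3.14 and -4.93.

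Between functional and rudimentary stamens the genes differed by less than the minimum fold change. M-stamen exceeded F-stamen by 0.76 on the log2 scale for LcPI (SE 0.14, FDR = 0.000505) and by 0.59 for LcAP3-1 (SE 0.05, FDR = 1.13e-07). Of all models, 14.9% were called in either direction in this comparison, in which the median model was at -0.17. The m-stamen minus F-stamen difference was 0.22 for LcPI (SE 0.14, FDR = 0.22) and 0.25 for LcAP3-1 (SE 0.05, FDR = 0.000513), and 19.0% of all models were called. On the FPKM scale this last difference turned to -0.13 for LcPI and -0.11 for LcAP3-1. The m-stamen libraries had TMM factors of 0.823 to 0.833 and the F-stamen libraries of 1.05 to 1.06, and the order of these stamens thus depends on the scaling. The median model was at -0.10 with edgeR and at -0.25 and -0.41 on log2(FPKM + 1) and log2(FPKM + 0.1), so both genes lay above the median model on each scale. M-stamen and m-stamen differed by 0.54 for LcPI (SE 0.14, FDR = 0.00762) and by 0.34 for LcAP3-1 (SE 0.05, FDR = 5.01e-05), neither called, where 10.5% of all models were.

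Between carpels LcPI was called in both comparisons with M-carpel, and LcAP3-1 was called in none. LcPI was lower in F-carpel than in M-carpel by a log2 fold change of -5.05 (SE 0.18, FDR = 2.32e-12), which was called, as were 28.6% of all models, and 787 models had a larger fall. LcAP3-1 was at 0.19 in the same comparison (SE 0.05, FDR = 0.00418), not called. Against m-carpel, F-carpel was at -0.84 for LcPI (SE 0.17, FDR = 0.000507) and at 0.91 for LcAP3-1 (SE 0.05, FDR = 2.38e-10), neither called, where 34.3% of all models were. Without F-carpel replicate 3 the value of LcPI was -0.54, also not called. Without F-carpel replicate 1, which has the lowest LcAP3-1 of the 3, the value of LcAP3-1 was 1.02 and was called. Between the rudimentary carpels, M-carpel exceeded m-carpel by 4.21 for LcPI (SE 0.17, FDR = 3.93e-11), which was called, as were 12.7% of all models, and by 0.73 for LcAP3-1 (SE 0.05, FDR = 1.34e-08), which was not. Over all 15 pairs of organs, LcPI was called in 11 and LcAP3-1 in 9, and an FDR below 0.01 was reached in 14 and 15.

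LcAP3-2, the other AP3 gene, had a pattern unlike that of both genes. It was at 59.2, 62.2 and 62.9 FPKM in F-carpel, at 7.77 ± 0.347 in F-stamen and between 1.37 and 3.21 in the mean of each other organ (SD, n = 3). The M-stamen and M-carpel libraries overlapped. LcAP3-2 was called lower in F-stamen than in F-carpel (log2 fold change -2.86) and higher in F-carpel than in M-carpel (4.56) and m-carpel (4.02). It was also called lower in M-stamen (-1.40) and m-stamen (-2.13) than in F-stamen. It made up 43.7% of the summed FPKM of both AP3 genes in F-carpel and between 0.667% and 8.21% in the other organs. In F-carpel, where LcPI was lowest, the summed AP3 level was 140.7 ± 6.22 FPKM (SD, n = 3), and the ratio of LcPI to this sum was 0.0187 ± 0.00682 (SD, n = 3). LcMADS96 of the TT16 subgroup, the B-sister lineage known from Arabidopsis seed coats, was at 3.64 FPKM in F-carpel, 3.33 in m-carpel, 1.18 in F-stamen and between 0.06 and 0.17 elsewhere.

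RNA of anther and pollen was looked for in the carpels, since both genes are abundant in stamens. A list of 36 models annotated as 14 pollen and anther markers summed to 302 to 311 CPM (counts scaled by the library total) in M-carpel, 274 to 286 in m-carpel and 215 to 232 in F-carpel. In stamens the sum was 5287 to 5372 in m-stamen, 4081 to 4422 in F-stamen and 1969 to 2218 in M-stamen. Single models were less uniform, with 26, 22 and 16 of the 36 higher in the stamen in F, M and m flowers. In the carpel 7, 9 and 16 were higher, so the list did not mark the stamen in all its members. Of the 36 models, between 6 and 9 were at 0 in each carpel. Single models differed between the rudimentary carpels, 17 of them being higher in M-carpel, while 15 were higher in m-carpel. LITCHI013059.m1 (LAT52), a pollen protein, was at 54.1 CPM in M-carpel against 19.8 in m-carpel, whereas LITCHI005202.m1 (CYP704B1), an enzyme of the pollen wall, was at 30.1 and 54.3.

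Relative to the stamen of the same flower, the median of these markers was higher in M flowers. The carpel level as a percentage of the stamen level had a median of 1.04% over the 18 markers of at least 5 CPM in F-stamen, 19.9% over 14 in M flowers and 1.46% over 15 in m flowers. The 19.9% is the midpoint of a gap, with no marker near it. The cut of 5 CPM was applied to each stamen apart, so the markers differ between flower types. M-stamen, the divisor in M flowers, also had the lowest marker sum of the stamens. Single markers ranged from 0 to 112.7%, from 4.89% to 220.3% and from 0.938% to 250.5%, and 14 of 18, 7 of 14 and 13 of 15 were above the percentage of LcPI. The models annotated as LAT52, ANXUR and pollen receptor-like kinase (PRK), products of mature pollen and pollen tubes, were also taken alone, a choice made after their values were seen. Their medians were 0.661% over 9 models in F flowers, 6.45% over 8 in M flowers and 1.23% over 9 in m flowers. LcPI was at 0.637%, 11.9% and 1.07%, with 5 of 9, 1 of 8 and 7 of 9 of these models above it. LcAP3-1 was at 36.0%, 20.1% and 17.5%, with 0 of 9, 1 of 8 and 0 of 9 above it. These counts hold for the chosen models only. In the full list some markers were above LcAP3-1 in each flower type, the highest at 112.7%, 220.3% and 250.5%. The part of stamen or pollen RNA in the carpel values was not tested.

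**Figure D4:**
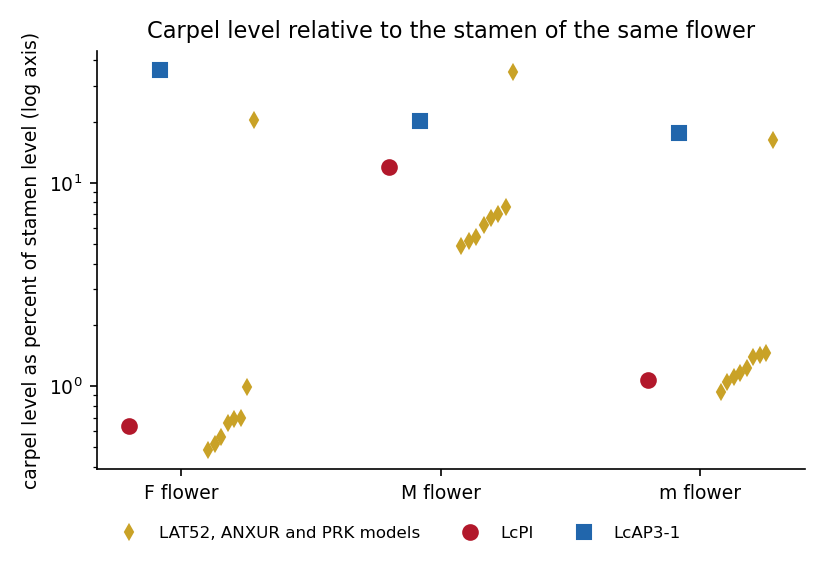
Carpel level as a percentage of the stamen level of the same flower (log axis) for LcPI, LcAP3-1 and the LAT52, ANXUR and PRK models of at least 5 CPM in the stamen; points are ratios of 3-library means, and 1 ANXUR model at 0% in F flowers cannot be drawn. LcPI is at 0.637%, 11.9% and 1.07% in F, M and m flowers and LcAP3-1 at 36.0%, 20.1% and 17.5%. The other markers of the list, some of them above LcAP3-1 in each flower type, are not drawn.

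Markers of carpel and ovule were also summed in every organ. The 17 models were at 244 to 259 CPM in F-carpel and 177 to 187 in F-stamen, at 326 to 368 in M-carpel and 244 to 252 in M-stamen, and at 305 to 316 in m-carpel and 175 to 196 in m-stamen, and between 3 and 5 were at 0. A large part of the sums of the rudimentary carpels came from 1 model, LITCHI006903.m1 (SPATULA). It was at 175.6 CPM in M-carpel and 138.6 in m-carpel, against 32.0 in F-carpel. LcSTK, whose Arabidopsis counterpart marks ovules, was at 51.1 CPM in F-carpel against 12.4 in m-carpel, 1.82 in M-carpel and 1.18 or less in stamens. Of the 17 models, 10, 9 and 10 were higher in the carpel than in the stamen in F, M and m flowers, and 4 were lower in each. BEL1 (LITCHI022058.m1) was higher in the stamen of every flower type, for example at 47.6 CPM in M-stamen against 6.59 in M-carpel. CRC (LITCHI005346.m1) was likewise higher in M-stamen (62.1 CPM) than in M-carpel (35.2). The list therefore did not mark the carpel in all its members.

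The C-class partner and some E-class partners of the B-class genes were present in every organ, in the carpels with little LcPI too. LcAG (LcMADS65), the C-class gene that specifies stamens with B function and carpels without it, was between 53.8 and 88.0 FPKM in the organ means, a narrower range than that of either B-class gene. LcSEP3 (LcMADS91), an E-class gene whose Arabidopsis protein bridges B- and C-class proteins, was between 91.95 and 351.9 FPKM, and LcSEP1 (LcMADS100) was between 108.7 and 226.99. The other E-class genes were lower in stamens. LcSEP4 was between 46.6 and 142.4 FPKM in the carpel means and between 6.44 and 13.0 in the stamen means. LcSEP2 was at 6.76 FPKM in F-carpel and lowest in m-stamen, at 0.093. LcSEP3 was called higher in stamens in F flowers (1.13) and lower in m flowers (-1.11), with 0.11 in M flowers.

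A list of 14 genes held those of the floral ABCDE classes and 3 related genes. The related genes were LcMADS72 and LcMADS101 of the AP1/FUL subgroup and LcMADS96 of the TT16 subgroup. Of the 14 genes, 3 were called higher and 5 lower in F-stamen than in F-carpel, 4 and 3 in M flowers, and 4 and 6 in m flowers. Of all models tested, 18.9% were called higher and 13.4% lower in F flowers, 13.5% and 9.44% in M flowers, and 21.0% and 15.8% in m flowers. LcPI and LcAP3-1 were the only members of this list called higher in stamens in all 3 flower types. LcMADS72, LcSTK and LcSEP4 (LcMADS73) were called lower in stamens in all 3. The median log2 fold change of the list was -0.57, 0.41 and -0.84 in F, M and m flowers, against 0.07, 0.01 and 0 over all models tested. LcAP1 (LcMADS95), of the A class, was called higher in stamens of M and m flowers (1.5 and 1.39), with 0.52 in F flowers. LcMADS101, of the AP1/FUL subgroup, was at 0.27 FPKM or less in the organ means. LcSHP (LcMADS11) was called higher in the stamen in M flowers (1.12), and LcSEP2 (LcMADS94) lower in F and m flowers (-3.41 and -4.08).

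**Figure D5:**
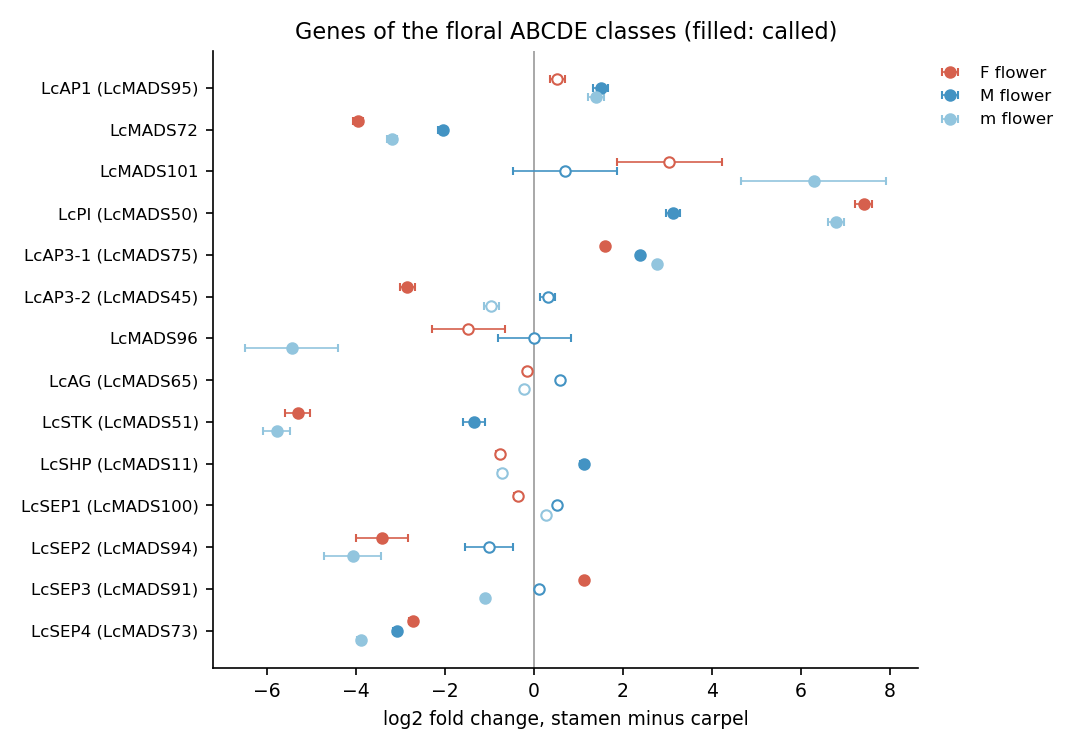
Log2 fold change of stamen minus carpel (edgeR) in F, M and m flowers for the 14 listed genes. They are the floral ABCDE genes with LcMADS72 and LcMADS101 of the AP1/FUL subgroup and LcMADS96 of the TT16 subgroup. Points are estimates from 3 libraries an organ, bars are SE, and filled points are called. LcPI and LcAP3-1 lie to the right of 0 in all flower types, and LcMADS72, LcSTK and LcSEP4 to the left; the estimate of LcMADS101 in m flowers rests on a carpel with 0 counts and is no bound.

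A list of 24 models annotated as activators, repressors and targets of the B-class genes in Arabidopsis, or as relatives of these, was examined. Of the 24 models, 20 were tested. Among these, 5 were called higher and 8 lower in F-stamen than in F-carpel, 2 and 3 in M flowers, and 4 and 5 in m flowers, against 18.9% and 13.4%, 13.5% and 9.44%, and 21.0% and 15.8% of all models. Between functional and rudimentary stamens, 2 were higher and 2 lower in M-stamen than in F-stamen and 3 and 2 in m-stamen, against 6.96% and 7.91% and 8.31% and 10.7% of all models. Between carpels, 7 were higher and 3 lower in F-carpel than in M-carpel and 6 and 4 than in m-carpel, against 13.9% and 14.7% and 18.3% and 16.0% of all models. The medians in F, M and m flowers were -0.77, -0.04 and -0.30, against 0.07, 0.01 and 0 over all models tested.

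Among the activators, LEAFY (LITCHI020239.m1), which switches on AP3 in Arabidopsis together with the F-box protein UFO, had 87 to 104 counts in the F-carpel libraries, at 1.63 FPKM, and 0 to 2 in all others. UFO (LITCHI030811.m1) was at 12.1 FPKM in F-stamen and 4.29 in F-carpel, which was called (1.62), and at 0.76 and -0.85 on the log2 scale in M and m flowers, neither called. The other UFO model, LITCHI028427.m1, was at 0.18 FPKM or less.

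SUPERMAN, which keeps B function out of the carpel whorl in Arabidopsis and is also active in its ovules, was matched by LITCHI015373.m1. It had 53 to 134 counts in F-carpel (2.31 ± 1.01 FPKM, SD, n = 3), 4 to 5 in m-carpel and 0 in the other 12 libraries. SUPERMAN and LEAFY both had most of their counts in F-carpel, the organ with the lowest LcPI. In m-carpel LcPI was also low, at 4.01 FPKM, with 4 to 5 counts of SUPERMAN and 0 to 2 of LEAFY. A link of either gene to the level of LcPI was not tested. A second model of the SUPERMAN locus and the RABBIT EARS model had 0 counts.

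AP2, which limits AP3 and C function in Arabidopsis, was matched by LITCHI006915.m1 and LITCHI018533.m1. LITCHI006915.m1 was called lower in stamens in F, M and m flowers (-1.29, -1.93 and -2.50), as was LITCHI018533.m1 (-2.49, -1.62 and -2.95). These 2 models were the only ones of the list called in the same direction in all 3 flower types apart from LITCHI005286.m1 below. LEUNIG and SEUSS encode corepressors that act with AP2. LITCHI016693.m1 (LEUNIG) was called lower in stamens in F and m flowers (-1.25 and -1.62) and LITCHI012677.m1 (LEUNIG) in F flowers (-1.29). A further LEUNIG model with higher FPKM than these in every organ, LITCHI017065.m1, was at -0.79, 0.06 and 0.26 in F, M and m flowers. It was not called in any of them. LITCHI025859.m1, annotated as LEUNIG_HOMOLOG and not as LEUNIG, was called higher in F flowers (1.15). LITCHI011334.m1 (SEUSS) and LITCHI009292.m1, annotated as SLK2 and not as SEUSS, were between -0.75 and -0.04 in the 3 flower types, and neither was called.

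Among the targets, NAP, a NAC factor that AP3 and PI activate in Arabidopsis, was matched by LITCHI005286.m1, LITCHI005204.m1 and LITCHI023389.m1. LITCHI005286.m1 was at 23.2, 8.34 and 19.3 FPKM in F-, M- and m-stamen and at 0.0631, 1.47 and 1.11 in the carpels, and was called higher in stamens in all 3 flower types. LITCHI005204.m1 was called higher in the stamen in F flowers (1.90) and lower in M and m flowers (-1.59 and -2.36), with its highest mean in m-carpel (411.7 FPKM). LITCHI023389.m1 was at 1.74 FPKM in F-stamen and 0.25 or less elsewhere. GNC and the BANQUO genes are held down by AP3 and PI in Arabidopsis. The GNC/GNL model LITCHI016563.m1 was called lower in the stamen in F flowers (-2.63) and higher in m flowers (1.66). The models listed for BANQUO were annotated as PRE5 (LITCHI019559.m1) and PRE6 (LITCHI005146.m1 and LITCHI022172.m1), so none carries the BANQUO name. LITCHI019559.m1 was at 59.7 FPKM in F-carpel and at 4.04 or less elsewhere. It was called lower in the stamen in F flowers (-4.80) and higher in M and m flowers. LITCHI017631.m1 (GNC/GNL) was called higher in F-carpel than in M-carpel, at 3.15 against 0.0245 FPKM. LITCHI005146.m1 was called higher in the stamen in m flowers (2.63), and LITCHI022172.m1 was at 0.61 FPKM in F-stamen and at 0 elsewhere.

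The genes most like each B-class gene were found by Pearson's r of log2 CPM over the 18 libraries among the 12766 models whose mean log2 CPM reached 3. All libraries of an organ share its pattern, so r describes 6 organs more than 18 independent points. For LcPI they were LITCHI029056.m1 and LITCHI029054.m1, annotated as senescence-specific cysteine protease SAG39 (r = 0.990 and 0.988), LITCHI011170.m1, an oxysterol-binding protein (0.989), LITCHI029907.m1, a GDSL esterase (0.987) and LITCHI016276.m1, which has no Swiss-Prot annotation (0.986). LITCHI029054.m1 was at 176.5, 385.2 and 222.3 FPKM in F-, M- and m-stamen, at 20.0 in M-carpel, at 2.34 in m-carpel and at 0.636 in F-carpel, the order of organs of LcPI except for F-stamen and m-stamen.

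For LcAP3-1 they were LITCHI031691.m1, a putative glucose-6-phosphate epimerase (r = 0.986), LITCHI010089.m1, a GDSL esterase (0.983), LITCHI026768.m1, a receptor-like kinase annotated as inactive (0.983), LITCHI020017.m1, a probable methyltransferase (0.981) and LITCHI019744.m1, ENHANCED DISEASE RESISTANCE 2 (0.978). No model was in both sets of 5. The r between LcPI and LcAP3-1 was 0.868, with 559 models more like LcPI than LcAP3-1 was. Within the 9 stamen libraries the r between the genes was 0.980, and within the 9 carpel libraries it was 0.154. The r of LcPI with LcAP3-2 was -0.61 over all 18 libraries.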

How the data were processed

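Detached carpels and stamens of 3 flower types were sequenced in 18 libraries. The deposited table holds whole-number read counts per gene model, without normalization, and FPKM values by the authors. The study's methods name Trimmomatic, removal of ribosomal reads and Cufflinks on uniquely mapped reads, while the submitters' processing notes name HISAT2 2.0.4 and StringTie, so which program made the deposited values is unclear. The sources used here do not give the counting program, the build or the strand setting, so overlapping genes cannot be told apart. The deposited FDR and log2 fold changes of the authors' own comparisons (9 pairs of organs) were not used. All sample columns were matched by name (0 unmatched), and 0 rows name no gene.

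Counts were fitted with edgeR 4.0.16 in R 4.3.3 (filterByExpr, TMM with factors of 0.823 to 1.16, quasi-likelihood F-test, 6 organs in 1 model), with Benjamini-Hochberg adjustment over 27247 models in each of 15 pairwise and 3 interaction contrasts. Calls needed an FDR below 0.01 and a log2 fold change of 1 or more in size. The ratio of LcPI to LcAP3-1 was tested by exact permutation (threshold 0.05 after adjustment). Alternatives were DESeq2 1.42.0, its size factors, other filters, limma 3.58.1 on log2(FPKM + 1) and log2(FPKM + 0.1), on which changes of low genes are understated, a replicate block, only the organs compared, an FDR below 0.05, no minimum fold change, other pseudocounts of the ratio, summed models of each locus (the same values, since each locus has 1 model), and each library left out.

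Members, lists and tests were chosen with earlier results of these data known. Named were the members, the ABCDE genes, B pathway models called in a comparison within a flower type or between functional and rudimentary organs, with some uncalled models for completeness, and the 5 models most like each member. Lists were matched by Swiss-Prot annotation, and 1 methionine synthase that matched MS1 by name was left out. Markers without a match were VGD1 and INO, and SPL/NZZ of the pathway list. Coding sequences and positions came from the study's supplementary gene table. The procedures were tested on simulated data.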

Additional observations from a re-analysis of the deposited data

Results flagged for a closer look

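The stamen to carpel difference of LcPI was larger in F than in M flowers by 4.29 on the log2 scale (FDR = 3.32e-10), and it was smaller in M than in m flowers, at -3.67 (FDR = 4.16e-09). Both were singled out because the interaction itself passed the threshold. In each library LcPI was between 74.8 and 78.8 FPKM in M-carpel. It was 3.56 to 4.54 FPKM in m-carpel, 1.65 to 3.31 in F-carpel and 364.5 to 674.8 over the stamens. The stamen to carpel difference of LcAP3-1 differed between F and m flowers by -1.16 (FDR = 1.15e-09), also by a test of the interaction. LcAP3-1 was between 74.5 and 82.4 FPKM in F-carpel and between 34.4 and 37.9 in m-carpel, with 218.9 to 221.4 in F-stamen and 197.4 to 210.0 in m-stamen.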

How the results depend on the processing

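For the 36 values of LcPI and LcAP3-1, 972 alternative values were computed and 965 kept their direction and their side of the threshold. In part of them the library left out belonged to no organ compared. Summing the models of each locus left the counts of both genes as they were. The 972 are thus not all separate checks. With limma on log2(FPKM + 1) and log2(FPKM + 0.1), m-stamen minus F-stamen turned to -0.131 and -0.132 for LcPI and to -0.106 and -0.106 for LcAP3-1. LcAP3-1 in F-carpel minus m-carpel became called with limma (1.12 and 1.14) and without F-carpel replicate 1 (1.02, in a range of 0.877 to 1.02 over the libraries left out). The ratio difference between rudimentary and functional carpels was 3.17 to 3.91 without each carpel library and was no longer past the threshold of 0.05. LcAP3-1 moved from 0.19 to at most 0.37 in F-carpel minus M-carpel and from 0.34 to at most 0.58 in M-stamen minus m-stamen, and LcPI from -0.84 to -0.50 in F-carpel minus m-carpel (-0.988 to -0.536 over the libraries left out), in each case without a change of call. The cause of these moves was not tested.

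The replicate numbers gave no sign of pairing. For this check the organ mean of each model was subtracted from its log2 CPM in each library. The remaining deviations of same-numbered libraries from different organs had correlations between -0.039 and 0.047 over 45 pairs of libraries. With the replicate block, 0 of the 36 values changed their call, for example 7.42 for LcPI in F-stamen minus F-carpel.

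Over all models, the count called was more than 1.5 times as high without a minimum fold change in 13 of 18 contrasts (1.39 to 2.75 times over all 18), and below it by the same margin with a mean of at least 5 CPM in 6 (0.623 to 0.832 times over all 18) and with limma on log2(FPKM + 1) in 1 (2229 against 3461 in M-carpel minus m-carpel). The share of calls that were higher moved by more than 10 points with limma on log2(FPKM + 1) in m-stamen minus F-stamen (43.7% to 27.6%), F-carpel minus M-carpel (48.7% to 60.3%) and F-carpel minus m-carpel (53.4% to 64.2%), and in M-stamen minus F-carpel (52.2% to 39.9%), m-stamen minus F-carpel (52.0% to 34.9%) and m-stamen minus M-carpel (54.6% to 44.5%). With log2(FPKM + 0.1) it also moved in M-stamen minus F-stamen (46.8% to 33.7%) and M-stamen minus m-stamen (46.8% to 61.2%), and without a minimum fold change in M-carpel minus m-carpel (67.5% to 53.2%). Of the 2 genes, LcPI in F-carpel had the lowest counts (72 to 150).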
